A study of Rattus norvegicus with 6 samples.

Results

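The genes described here are a list of 45 cell cycle genes, made up of genes of DNA replication and deoxynucleotide supply (called S phase genes below) and genes of mitosis, measured in the renal cortex of rats given tricresyl phosphate. Members were chosen by name, with earlier results of these data known. Each microarray probe was named through its transcript accession. A member was measured if at least 1 of its probes was well above background on 3 or more of the 6 arrays. Of the 45 genes listed, 40 were measured, of 31637 genes and unnamed transcripts in all. The other 5, Mcm5, Kif4a, Bub1b, Melk and Top2a, had no probe matched by accession and were not analysed here. The 40 genes had 83 probes, of which 77 were kept, and 21 genes had several kept probes.

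One group of 3 rats received tricresyl phosphate, a flame-retardant plasticiser of the organophosphate class, at 200 mg/kg/day for 4 weeks. The control group of 3 rats received the vehicle, corn oil, for 4 weeks. All 6 were male Crl:CD(SD) Sprague-Dawley rats, bought at an age of 5 weeks, and RNA of 1 animal was hybridised to each 1-colour Agilent array. The comparison asks how transcripts of the renal cortex differ after repeated dosing with the ester.

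Cells that divide make the proteins of replication and mitosis in waves. Transcription factors of the E2F family switch on S phase genes as cells leave G1. Complexes that contain B-MYB and FOXM1 switch on mitotic genes later, through a promoter element called the CHR (cell cycle genes homology region). Many promoters of mitotic genes also hold an element called the CCAAT box. Most cells of the adult renal cortex are quiescent tubule cells, so dividing cells are a minority of the tissue. Tubule cells re-enter the cycle when the epithelium is damaged. Which cells held the transcripts of these genes was not measured here. In bulk tissue, fewer cells of a dividing type and less RNA per cell cannot be told apart.

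Promoter sequence is shown for 4 members to make these elements visible. The RefSeq promoter table of assembly GRCr8 held 36 of the 45 members, and the 250 bases before the annotated start are printed 5′ to 3′ on the strand of the gene. Capitals mark matches, on either strand, to the CHR (TTTGAA or TTCGAA), the CCAAT box (CCAAT) or the E2F motif (TTTGGCGC, TTTCGCGC or TTTCCCGC). Kif15 is shown as the member with the largest difference, Cdk1 as a mitotic gene that holds all 3 motifs, Birc5 for a CHR just before its start, and Mcm7 as an S phase gene.
Kif15, chr8:131479154-131479403, plus strand: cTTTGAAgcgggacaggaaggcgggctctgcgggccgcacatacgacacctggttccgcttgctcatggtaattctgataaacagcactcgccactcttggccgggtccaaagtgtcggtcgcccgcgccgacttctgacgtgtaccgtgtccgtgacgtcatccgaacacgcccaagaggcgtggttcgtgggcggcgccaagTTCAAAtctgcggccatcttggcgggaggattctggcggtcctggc
Cdk1, chr20:19265043-19265292, plus strand: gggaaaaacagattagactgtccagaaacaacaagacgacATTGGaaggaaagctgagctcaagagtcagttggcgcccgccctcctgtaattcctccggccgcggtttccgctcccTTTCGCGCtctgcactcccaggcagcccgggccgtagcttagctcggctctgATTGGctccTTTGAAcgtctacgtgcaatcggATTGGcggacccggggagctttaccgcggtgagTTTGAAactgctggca
Birc5, chr10:103571896-103572145, plus strand: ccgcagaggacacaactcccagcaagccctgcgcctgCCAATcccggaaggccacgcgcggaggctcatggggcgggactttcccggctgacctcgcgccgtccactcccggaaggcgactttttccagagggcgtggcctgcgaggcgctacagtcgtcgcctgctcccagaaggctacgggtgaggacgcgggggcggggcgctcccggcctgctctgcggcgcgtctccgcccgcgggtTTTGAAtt
Mcm7, chr12:22163179-22163428, minus strand: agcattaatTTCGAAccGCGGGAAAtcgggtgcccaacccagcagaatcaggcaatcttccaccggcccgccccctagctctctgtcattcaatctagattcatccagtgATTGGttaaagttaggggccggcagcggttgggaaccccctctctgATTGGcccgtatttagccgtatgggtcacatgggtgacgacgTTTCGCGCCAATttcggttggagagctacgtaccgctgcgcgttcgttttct
In Kif15, the capitals are 2 CHR matches, 1 of them read on the other strand. In Cdk1 they are 2 CHR matches, 3 CCAAT boxes read on the other strand and 1 E2F motif. In Mcm7, an E2F motif shares its last base with a CCAAT box, and this stretch is 1 run of capitals.

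Over the window of 250 bases before to 50 bases after the start, a CHR was found in 20 of the 36 promoters of members (55.6%), against 19.5% of the 27457 promoters in the table. A CCAAT box was found in 24 of 36 (66.7%), against 37.7% of all promoters, and an E2F motif in 8 of 36 (22.2%), against 1.82% of all promoters. Of the 10 S phase promoters, 6 held an E2F motif, 3 a CHR and 6 a CCAAT box. Of the other 26 promoters, 2 held an E2F motif, 17 a CHR and 18 a CCAAT box. The difference between these classes was not tested. These matches describe the letters of the window and do not show that a factor binds there.

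Levels below are the log2 processed signal of an array minus the 75th percentile of that array, differences are tricresyl phosphate minus corn oil on the same scale, and each gene is represented by its brightest kept probe. Most cell cycle genes were lower in the cortex of the tricresyl phosphate animals, and no single gene passed the test. Of the 40 measured members, 31 had a negative difference (77.5%) and 9 a positive one, where 59.2% of all genes had a negative difference. The list was chosen with earlier results of these data known, so this share and those below describe the list and do not test it. The median difference of the members was −0.20, with a range of −1.28 to 0.30, against a median of −0.04 over all genes. In limma with Benjamini-Hochberg adjustment, 0 genes of the array reached the threshold of 0.05 (0%), and adjusted p-values of members ranged from 0.795 to 0.967.

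At an unadjusted limma p under 0.05, 11 members were lower with tricresyl phosphate (27.5% of those measured) and 0 were higher. Over all genes, 3.83% were lower and 1.64% were higher at that threshold. The 11 were Aurka, Birc5, Ccna2, Cdk1, Kif15, Mcm3, Mki67, Ndc80, Nusap1, Rrm2 and Ube2c. All 3 tricresyl phosphate animals lay below all 3 corn oil animals for 15 members (37.5%), against 7.88% of all genes, and above them for 0 members, against 3.85%. The count of 11 depended on single animals. It was 4 without corn oil replicate 2 (Ccna2, Kif15, Ndc80 and Rrm2), 7 without tricresyl phosphate replicate 2 and 7 without tricresyl phosphate replicate 3. The shares of all genes lower at that threshold in these fits were 3.61%, 3.24% and 3.01%. The array of corn oil replicate 1 was the only one on its slide, and the other 5 arrays, which shared a slide, gave 11 lower members, 8 of them shared with the 11 above, and a median difference of −0.25. Of all genes, 2.95% were lower at that threshold without corn oil replicate 1.

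**Figure D1:**
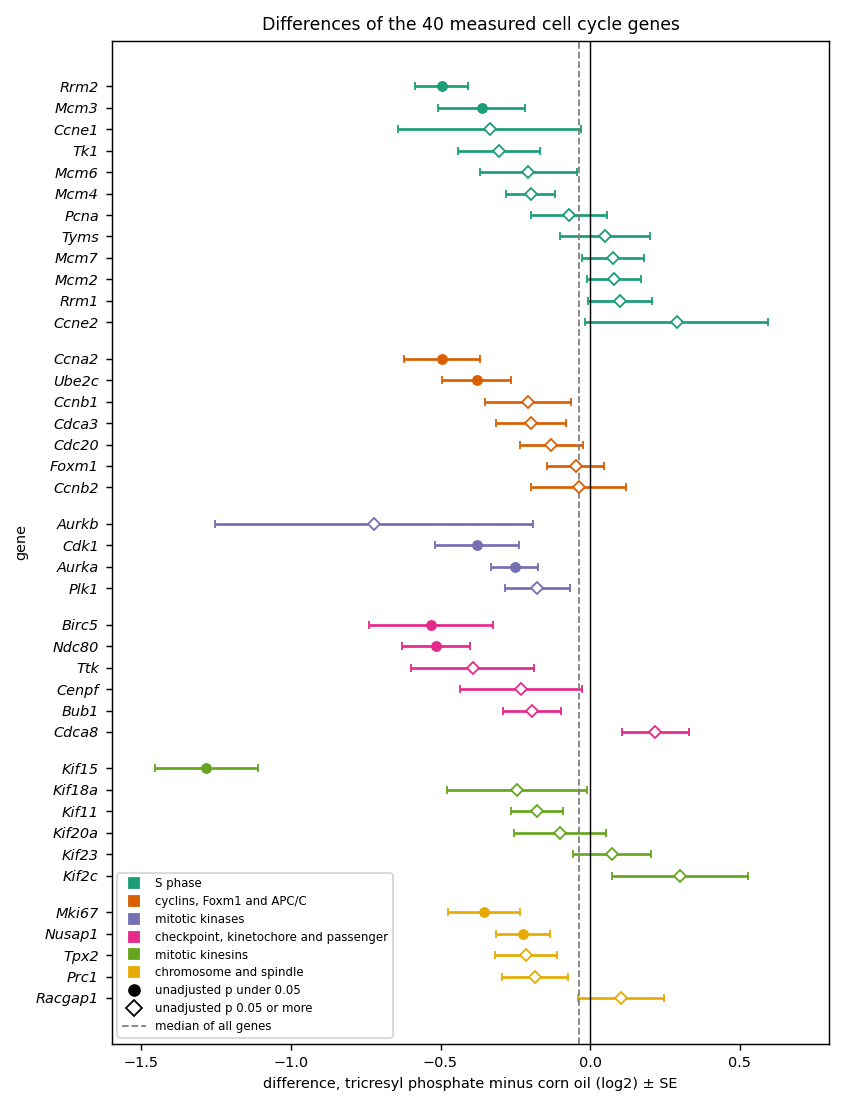
Difference in level between tricresyl phosphate and corn oil (x axis, log2, bars are the SE of the limma fit, n = 3 each) for the 40 measured genes, grouped by role. Of the 40 points, 31 lie left of 0, and Kif15, at −1.28, lies farthest left.

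The tissue label was checked against cell type markers. The 7 listed markers of the proximal tubule, the main epithelium of the cortex, were all measured, and their mean level ranged from 7.20 to 7.32 with tricresyl phosphate and from 7.28 to 7.36 with corn oil. These ranges overlap. Correlations between arrays over all genes lay between 0.987 and 0.991, and 41503 to 43823 of 61537 probes were well above background on each array. Over the members, each gene's deviation from its mean over the 6 animals had a median of −0.06, −0.10 and −0.13 in the tricresyl phosphate animals and of 0.03, 0.19 and 0.10 in the corn oil animals. Tricresyl phosphate replicate 3 was lowest and corn oil replicate 2 highest, and the groups did not overlap. The pooled SD within groups of this median was 0.062.

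**Figure D2:**
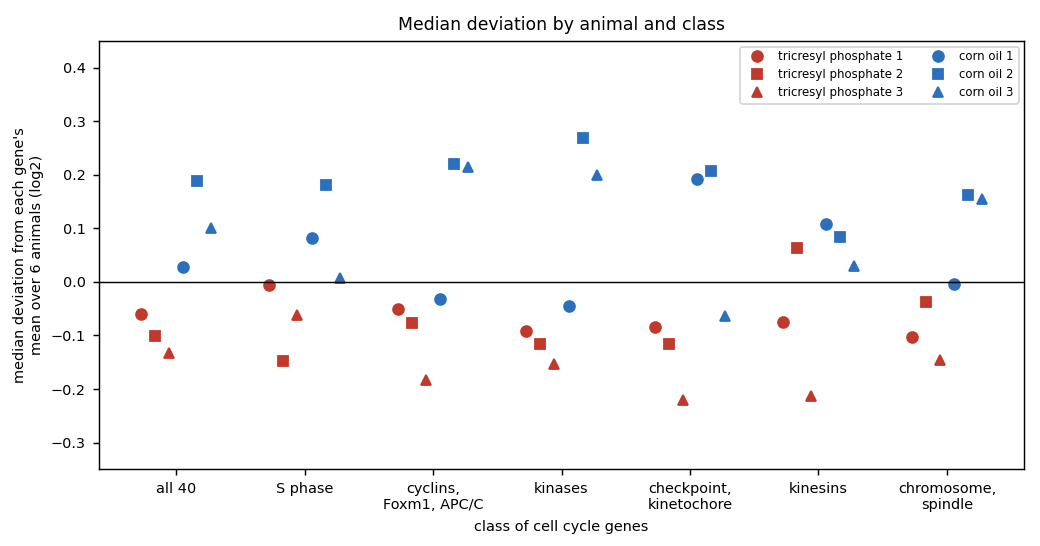
Median deviation of cell cycle genes from each gene's mean over the 6 animals (y axis, log2), for all 40 and by class, with 1 point per animal, tricresyl phosphate in red and corn oil in blue. For all 40 genes, the red points lie between −0.13 and −0.06 and the blue points between 0.03 and 0.19.

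Among the S phase genes, 12 of 13 were measured. Their median difference was −0.13, and 7 were lower (58.3%, near the 59.2% of all genes) and 5 higher. At an unadjusted limma p under 0.05, 2 were lower (16.7%, against 3.83% of all genes). The clearest was Rrm2, the small subunit of ribonucleotide reductase that is made in S phase. Its level was 0.63, 0.62 and 0.49 in the tricresyl phosphate animals and 1.09, 1.14 and 0.99 in the corn oil animals. The groups were well apart, with every tricresyl phosphate value at least 0.36 below the lowest corn oil value. The mean was 0.58 ± 0.08 with tricresyl phosphate and 1.07 ± 0.08 with corn oil (SD, n = 3 each), a difference of −0.50 ± 0.09 (SE) or 0.709-fold. Its adjusted limma p was 0.812, and it ranked 41st by p among all genes. The large subunit gene Rrm1 differed by 0.10 ± 0.11 (SE), in the other direction, with overlapping groups.

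Subunits of the MCM helicase, which unwinds DNA at replication forks, did not go one way. Mcm3 was at −0.81, −1.05 and −0.99 with tricresyl phosphate and at −0.50, −0.41 and −0.86 with corn oil. Corn oil replicate 3 lay within the range of the tricresyl phosphate animals, and the difference of −0.36 ± 0.15 (SE) became −0.15 with the mean of its 4 kept probes, above an unadjusted p of 0.05. Mcm4 was at −0.76, −0.74 and −0.76 with tricresyl phosphate and at −0.52, −0.50 and −0.64 with corn oil. The groups did not overlap, the difference was −0.20 ± 0.08 (SE), and its sign turned to 0.03 when the mean of its 3 kept probes was used. Mcm2 was at −0.76, −0.69 and −0.63 with tricresyl phosphate and at −0.70, −0.87 and −0.75 with corn oil, with overlapping groups and a difference of 0.08 ± 0.09 (SE). Mcm6 differed by −0.21 ± 0.16 and Mcm7 by 0.08 ± 0.10 (SE), and the groups of both overlapped.

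Pcna, the sliding clamp of the replication fork and also a DNA repair protein, was at 1.56, 1.62 and 1.33 with tricresyl phosphate and at 1.42, 1.75 and 1.56 with corn oil. The groups overlapped, and the difference was −0.07 ± 0.13 (SE). Its sign turned to 0.01 when tricresyl phosphate replicate 3 or corn oil replicate 2 was left out. Tk1, the thymidine kinase of the salvage pathway, had groups that did not overlap and a difference of −0.31 ± 0.14 (SE), whereas Tyms, thymidylate synthase, differed by 0.05 ± 0.15 (SE). The E-type cyclins, which act at entry to S phase, differed by −0.34 ± 0.30 (SE) for Ccne1 and by 0.29 ± 0.30 (SE) for Ccne2, both with overlapping groups.

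All 7 genes of the class of cyclins, Foxm1 and factors of the anaphase-promoting complex (APC/C) were measured. All 7 had negative differences (100%, against 59.2% of all genes), with a median of −0.20 and a range of −0.50 to −0.04. Ccna2, the cyclin of S and G2 phase, was at −1.82, −2.04 and −2.12 with tricresyl phosphate and at −1.63, −1.33 and −1.53 with corn oil. The groups did not overlap, although tricresyl phosphate replicate 1 lay close to corn oil replicate 1. The difference was −0.50 ± 0.13 (SE), or 0.709-fold, with an adjusted limma p of 0.812. With the mean of the 4 kept probes of Ccna2 it was −0.27 and no longer reached an unadjusted p under 0.05.

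Ube2c, the ubiquitin-conjugating enzyme that works with the APC/C at mitotic exit, was at −2.59, −2.63 and −2.64 with tricresyl phosphate and at −2.45, −2.12 and −2.15 with corn oil. The tricresyl phosphate animals were close together and all below the lowest corn oil animal, and the difference was −0.38 ± 0.11 (SE). Cdca3, a trigger of mitotic entry, was at −1.05, −1.14 and −1.29 with tricresyl phosphate and at −1.09, −0.80 and −0.99 with corn oil, with overlapping groups and a difference of −0.20 ± 0.12 (SE). Ccnb1, the mitotic cyclin, was at −2.89, −2.60 and −2.86 with tricresyl phosphate and at −2.82, −2.46 and −2.45 with corn oil. These groups overlapped through corn oil replicate 1, and the difference was −0.21 ± 0.14 (SE). The other B-type cyclin, Ccnb2, differed by −0.04 ± 0.16, the APC/C activator Cdc20 by −0.13 ± 0.10, and the transcription factor Foxm1 by −0.05 ± 0.10 (SE).

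Of 5 mitotic kinase genes, 4 were measured and all 4 had negative differences (100%, against 59.2% of all genes), with a median of −0.31. Aurka, the centrosome and spindle kinase, was at −1.19, −1.23 and −1.19 with tricresyl phosphate and at −0.99, −0.91 and −0.94 with corn oil. Both groups were tight and did not overlap, and the difference was −0.25 ± 0.08 (SE), or 0.840-fold. Cdk1, the kinase that drives entry into mitosis, was at 0.44, 0.39 and 0.15 with tricresyl phosphate and at 0.47, 0.85 and 0.78 with corn oil. Corn oil replicate 1 lay just above the highest tricresyl phosphate animal, and the difference was −0.38 ± 0.14 (SE). Plk1, which acts in centrosome maturation and spindle assembly, was at −0.71, −0.85 and −0.94 with tricresyl phosphate and at −0.79, −0.55 and −0.62 with corn oil, with overlapping groups and a difference of −0.18 ± 0.11 (SE). Aurkb, the kinase of the chromosomal passenger complex, was well above background on only 1 tricresyl phosphate array and 2 corn oil arrays, and its difference of −0.72 ± 0.53 (SE) was smaller than the SD of 0.97 between the tricresyl phosphate animals.

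**Figure D3:**
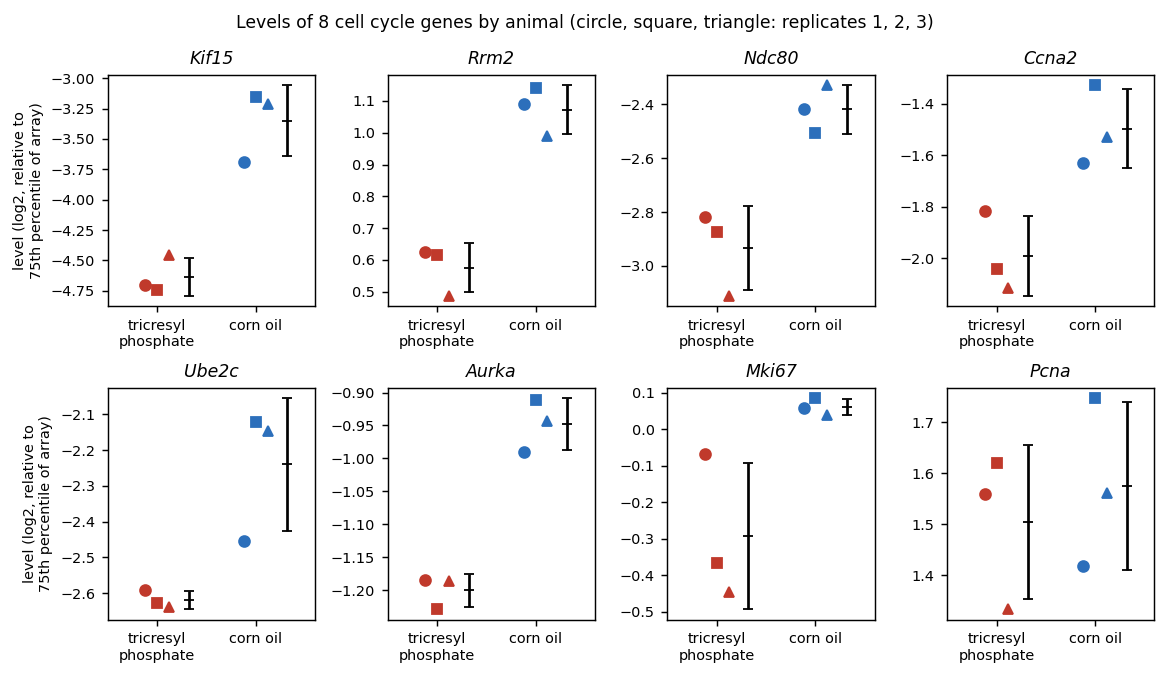
Level of 8 cell cycle genes in each animal (y axis, log2 relative to the array's 75th percentile, a separate scale per panel), with tricresyl phosphate left in red and corn oil right in blue and bars for the mean ± SD. For Pcna the groups overlap, and for the other 7 genes shown every tricresyl phosphate animal lies below every corn oil animal.

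The class of checkpoint, kinetochore and passenger genes holds proteins that tie chromosomes to the spindle and delay anaphase until all are attached. Of 7 genes, 6 were measured, 5 were lower (83.3%, against 59.2% of all genes), and the median difference was −0.31. Ndc80, the kinetochore subunit that binds microtubules, was at −2.82, −2.87 and −3.11 with tricresyl phosphate and at −2.42, −2.51 and −2.33 with corn oil. The groups were clearly apart, and the difference was −0.52 ± 0.11 (SE), or 0.700-fold. Birc5, survivin, a passenger protein, was at −1.44, −2.10 and −1.34 with tricresyl phosphate and at −1.04, −1.17 and −1.08 with corn oil. The groups did not overlap, but tricresyl phosphate replicate 2 lay far below the others, and the difference of −0.53 ± 0.21 (SE) became −0.30 without it.

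Bub1, a checkpoint kinase, was at −2.29, −2.30 and −2.31 with tricresyl phosphate and at −2.07, −1.99 and −2.25 with corn oil. The groups did not overlap, with corn oil replicate 3 just above the tricresyl phosphate animals, and the difference was −0.19 ± 0.10 (SE). The checkpoint kinase gene Ttk differed by −0.39 ± 0.20 and the kinetochore protein gene Cenpf by −0.23 ± 0.20 (SE), both with overlapping groups. Cdca8, borealin, another passenger protein, differed by 0.22 ± 0.11 (SE), the opposite direction to Birc5, with overlapping groups.

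Kinesins are motors that move along microtubules, and those listed shape the spindle or divide the cell. Of 7 kinesin genes, 6 were measured, 4 were lower (66.7%, near the 59.2% of all genes) and 2 higher. The median difference was −0.14. Kif15, a motor that helps keep the spindle bipolar, stood apart from the rest of the class. It was at −4.70, −4.74 and −4.45 with tricresyl phosphate and at −3.69, −3.15 and −3.21 with corn oil. Every corn oil animal was above every tricresyl phosphate animal by at least 0.77, a gap wider than the range of either group. The mean was −4.63 ± 0.16 with tricresyl phosphate and −3.35 ± 0.29 with corn oil (SD, n = 3 each), a difference of −1.28 ± 0.17 (SE) or 0.411-fold, with an adjusted limma p of 0.795. It ranked 10th by p among all genes. The single probe of Kif15 was well above background on all 6 arrays but dim, and its difference was −0.65 after normexp background correction and quantile normalization.

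Kif11, the plus-end motor that separates spindle poles, was at 2.20, 2.17 and 2.22 with tricresyl phosphate and at 2.45, 2.40 and 2.27 with corn oil. The groups did not overlap, and the difference was −0.18 ± 0.09 (SE). Kif2c, a microtubule depolymerase at the centromere, was at −4.69, −4.86 and −5.37 with tricresyl phosphate and at −5.62, −5.16 and −5.05 with corn oil. The groups overlapped, 1 corn oil array was not well above background for it, and the difference was 0.30 ± 0.23 (SE). It was 0.11 with the mean of its 2 kept probes and lay between 0.13 and 0.50 when 1 animal was left out. Kif18a, which damps chromosome movement, differed by −0.24 ± 0.23, and the cytokinesis motors Kif20a and Kif23 by −0.10 ± 0.15 and 0.07 ± 0.13 (SE).

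Of 6 genes of chromosome and spindle proteins, 5 were measured and 4 were lower (80%, against 59.2% of all genes). The median difference was −0.21. Mki67, the proliferation antigen Ki-67 that coats mitotic chromosomes, was at −0.07, −0.37 and −0.45 with tricresyl phosphate and at 0.06, 0.09 and 0.04 with corn oil. The tricresyl phosphate animals were spread below the corn oil animals, which were nearly equal, and the difference was −0.35 ± 0.12 (SE), or 0.782-fold. With the mean of the 5 kept probes of Mki67 it was −0.19, above an unadjusted p of 0.05. Nusap1, a nucleolar and spindle-associated protein, was at −1.69, −1.67 and −1.65 with tricresyl phosphate and at −1.56, −1.37 and −1.41 with corn oil, with no overlap and a difference of −0.22 ± 0.09 (SE). Tpx2, the activator of Aurora A on the spindle, was at −3.60, −3.40 and −3.40 with tricresyl phosphate and at −3.37, −3.24 and −3.16 with corn oil. The groups of Tpx2 met closely without overlap, and the difference was −0.21 ± 0.10 (SE). Prc1, which bundles microtubules of the midzone, differed by −0.18 ± 0.11, and Racgap1, a cytokinesis regulator, by 0.10 ± 0.14 (SE), both with overlapping groups.

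Between the roles, the S phase genes held 7 lower of 12 measured (58.3%), and the remaining classes 24 lower of 28 (85.7%). Of all genes, 59.2% were lower. The remaining classes had a median difference of −0.21 and 9 lower at an unadjusted limma p under 0.05 (32.1%, against 3.83% of all genes). The difference between the classes was not tested. When all genes were split by mean level into 5 equal classes, the dimmest held 7 members, 4 of them lower, where 59.7% of all its genes were lower. From there to the brightest class, 9 of 9, 12 of 17, 5 of 6 and 1 of 1 members were lower, where 54.1%, 50.6%, 55.7% and 75.9% of all genes of these classes were lower.

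**Figure D4:**
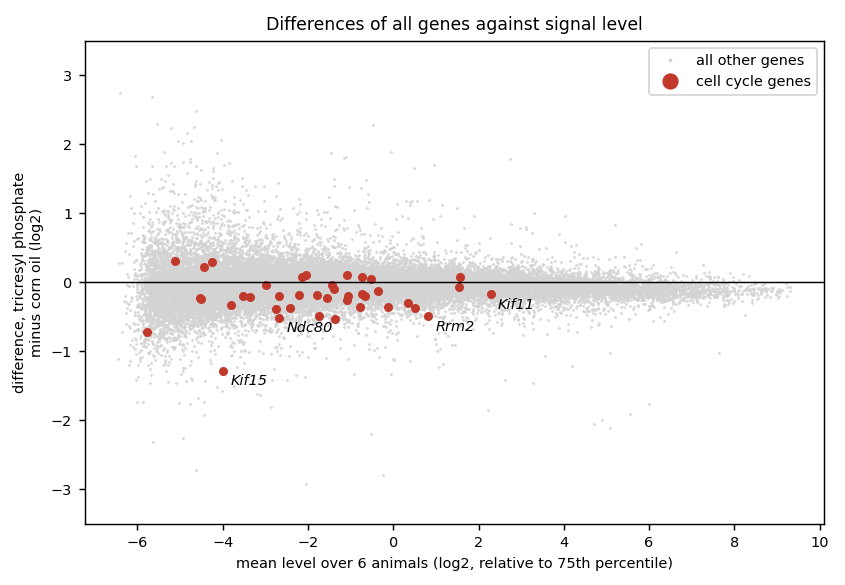
Difference between tricresyl phosphate and corn oil (y axis, log2) against mean level over the 6 animals (x axis, log2 relative to the 75th percentile) for all genes in grey and the 40 cell cycle genes in red. Of the red points, 31 lie below 0, with Kif15 lowest at −1.28, and 5 other genes lie outside the plotted range of −3.5 to 3.5.

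The probes of 1 gene did not always agree in size or sign. Over the 77 kept probes, 53 had a negative difference (68.8%), 15 were lower at an unadjusted p under 0.05 (19.5%) and 0 were higher. Over all 21713 kept probes with a gene symbol, 50.4% had a negative difference, 2.22% were lower at that threshold and 2.27% were higher. The 37 probes of members other than the one that stands for its gene had a median difference of −0.06, with 22 lower (59.5%) and 4 lower at that threshold (10.8%). Over all such other probes, the median was 0.03, 43.1% were lower, 1.85% were lower at that threshold and 3.16% were higher. Of 21 members with several kept probes, 7 had probes of both signs, namely Ccna2, Kif2c, Mcm3, Mcm4, Mki67, Pcna and Prc1. The 4 probes of Rrm2 ranged from −0.50 to −0.004, and 3 of them were lower at an unadjusted p under 0.05. The remaining probe, well above background on all 6 arrays, showed nearly no difference (−0.004 ± 0.13, SE). The 3 probes of Ttk ranged from −0.81 to −0.21 and those of Kif11 from −0.57 to −0.04, all lower. The lowest probe of each was well above background on 3 corn oil arrays but on only 1 tricresyl phosphate array. Both thus passed the filter through the corn oil group. For Ttk, this probe is among the 4 other probes that were lower at an unadjusted p under 0.05. The 3 probes of Racgap1 ranged from 0.06 to 0.33 and those of Rrm1 from 0.08 to 0.16, all higher.

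**Figure D5:**
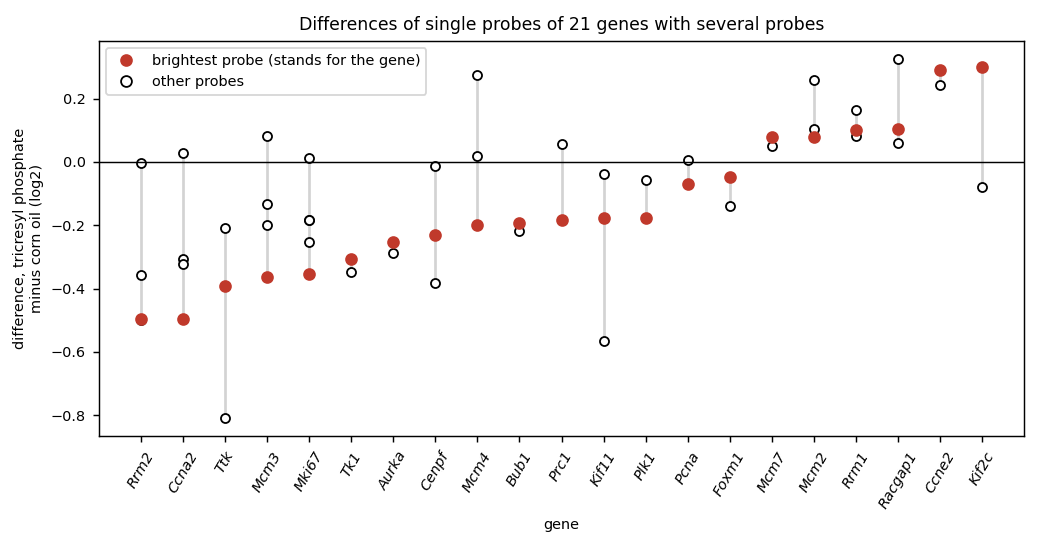
Difference between tricresyl phosphate and corn oil (y axis, log2) for each kept probe of the 21 cell cycle genes with several kept probes, the brightest probe filled in red and the other probes open. The points of 7 genes lie on both sides of 0.

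Further genes of the same pathways were taken from lists that do not hold the members. These lists, like the members, were chosen with earlier results of these data known. Of 46 other mitotic genes, 32 were measured, with a median difference of −0.20. Of these, 25 were lower (78.1%, against 59.2% of all genes). At an unadjusted p under 0.05, 6 were lower (18.8%, against 3.83% of all genes). Cdca2, a chromatin regulator of anaphase, was at −4.92, −4.97 and −5.41 with tricresyl phosphate and at −4.50, −4.26 and −4.48 with corn oil, with no overlap. Its difference was −0.69 ± 0.16 (SE), and −0.30 after normexp background correction and quantile normalization. Spc25, a partner of Ndc80 in the kinetochore, was at −2.05, −2.28 and −2.21 with tricresyl phosphate and at −1.74, −1.39 and −1.79 with corn oil, with no overlap and a difference of −0.54 ± 0.14 (SE). Kif22, a chromosome-binding kinesin, was at −0.79, −1.01 and −1.10 with tricresyl phosphate and at −0.62, −0.60 and −0.50 with corn oil, with no overlap and a difference of −0.39 ± 0.11 (SE). All 3 had an adjusted limma p of 0.812.

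Of 26 other S phase genes, 22 were measured, with a median difference of −0.09. Of these, 15 were lower (68.2%, against 59.2% of all genes). At an unadjusted p under 0.05, 1 was lower (4.55%, near the 3.83% of all genes). This was Gins1, a subunit of the replicative helicase, at −2.80, −3.03 and −2.90 with tricresyl phosphate and at −2.45, −2.37 and −2.75 with corn oil, a difference of −0.39 ± 0.13 (SE). Its groups did not overlap. Chaf1b, a subunit of a chromatin assembly factor, differed by −0.32 ± 0.17 (SE), with overlap.

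Genes that act before S phase were not mainly lower. Of 19 genes of G1 cyclins, E2F factors and RB proteins, 15 were measured, with a median difference of 0.09. Of these, 6 were lower (40%, against 59.2% of all genes) and 9 higher. E2f1, an activator of S phase genes, was the 1 gene of this list lower at an unadjusted p under 0.05 (6.67%, against 3.83% of all genes). It was at −1.69, −1.76 and −1.80 with tricresyl phosphate and at −1.55, −1.17 and −1.45 with corn oil. Its groups did not overlap, and the difference was −0.36 ± 0.12 (SE). Ccnd1, cyclin D1, was at 3.11, 2.86 and 3.42 with tricresyl phosphate and at 3.09, 2.93 and 2.51 with corn oil, with overlap and a difference of 0.28 ± 0.21 (SE), which was 0.14 without tricresyl phosphate replicate 3 and 0.12 without corn oil replicate 3. The pocket protein gene Rbl2 differed by −0.18 ± 0.11 and E2f3 by −0.16 ± 0.10 (SE), both with overlap.

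Of 12 genes of CDK inhibitors and arrest, 11 were measured, 5 were lower and 6 higher, 0 had an unadjusted p under 0.05 in either direction, and the median difference was 0.02. Cdkn1a, the p21 inhibitor induced by p53, was at 4.78, 4.89 and 4.80 with tricresyl phosphate and at 4.79, 4.82 and 5.09 with corn oil. The groups overlapped, and the difference of −0.07 ± 0.11 (SE) turned to 0.01 under quantile normalization. Cdkn1b, the p27 inhibitor, was at 1.28, 1.12 and 0.97 with tricresyl phosphate and at 1.34, 0.98 and 0.97 with corn oil, with overlap and a difference of 0.02 ± 0.14 (SE). Ccng1, a p53 target, differed by 0.13 ± 0.10, Ccng2 by 0.11 ± 0.10 and Btg1, an antiproliferative factor, by −0.13 ± 0.11 (SE), all with overlap. Over the 80 measured genes of these further lists, 10.0% were lower at an unadjusted p under 0.05 and the groups of 12.5% were apart with tricresyl phosphate lower, beside the 3.83% and 7.88% of all genes.

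Marker lists of other cell types of the cortex were measured beside these genes. Of 6 erythroid markers 5 were measured and all 5 were lower, 3 of them at an unadjusted p under 0.05 (Epb42, Alas2 and Hbb, 60% against 3.83% of all genes). Their mean level was −0.77 to −0.26 with tricresyl phosphate and −0.23 to 0.02 with corn oil, with no overlap. The mean level of the cell cycle genes had no overlap either, at −1.94 to −1.90 with tricresyl phosphate and −1.78 to −1.62 with corn oil. Within the groups, the erythroid mean was highest in corn oil replicate 1 and lowest in tricresyl phosphate replicate 2. The mean of the cell cycle genes was highest in corn oil replicate 2 and lowest in tricresyl phosphate replicate 3. A relation between the 2 lists was not tested. Of 6 T cell markers all were measured, 3 were lower and 3 higher, and their mean level was −3.15 to −3.04 with tricresyl phosphate and −3.05 to −2.94 with corn oil, with overlap. Of 7 macrophage markers 6 were measured and 4 were lower (66.7%, near the 59.2% of all genes). Their mean level was 0.79 to 0.94 with tricresyl phosphate and 0.89 to 1.01 with corn oil, with overlap. Markers of fibroblasts, endothelium, B cells, podocytes, distal tubule and collecting duct, and of tubular injury, also had overlapping mean levels. Outside the erythroid list, 3 single markers had groups that did not overlap and an unadjusted limma p under 0.05: the T cell gene Cd3d (−0.27 ± 0.10, SE), the macrophage gene C1qa (−0.28 ± 0.10, SE) and the endothelial gene Flt1 (0.56 ± 0.15, SE). The part of these cells in the differences of the cell cycle genes was not tested.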

How the data were processed

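Spots were quantified by the authors with Agilent Feature Extraction (10.7 per the submitters' processing notes, and in more detail 10.7.1.1 per the file headers), on a design annotated on build rn4. The deposited intensity values are linear, background-subtracted and spatially detrended processed signals, with flags per spot. The authors' deposited value table, used as an alternative, equals these intensity values divided by 1 number per array, close to the 75th percentile. It is linear and uncentred, with column medians between 0.1094 and 0.1152, and its software was not given in the sources used here. The median processed signal per array was 102 to 133 over a median background of 33 to 41, no spot was saturated, and 77 outlier spots were left out. Precision is limited by the number of arrays.

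From the log2 processed signal of each probe, the array's 75th percentile was subtracted, taken over the 61537 non-control probes. Probes were named through accessions in the RefSeq gene table of assembly GRCr8, with 1 symbol for 28206 and none for 33331. A probe was kept if well above background on at least 3 of 6 arrays (43099 kept), and the brightest kept probe stood for a gene. Groups were compared, two-sided, with limma 3.58.1 (lmFit and eBayes, R 4.3.3) and Benjamini-Hochberg adjustment over 31637 genes. SE values come from this fit. It was also run on simulated data, with shifts larger than the differences of most members. That run does not show how the fit performs for differences as small as theirs.

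The members, their classes and the further lists were chosen with earlier results of these data known. Per-animal values are given for the 3 members of each of 6 classes with the smallest p, for Mki67, Pcna, Cdk1, Ccnb1, Ccna2, Mcm2, Rrm2, Kif15 and Aurka, and, from each further list, differences for the 3 genes with the smallest p and for Cdkn1a, Cdkn1b and Ccnd1; 1 gene that this rule names is not reported here. The 15 alternatives were other normalizations, the authors' table, other filters, the mean of the probes of a gene, another variance model, slide and replicate blocks and leaving out each animal. For normexp, with an offset of 50, the median spot signal took the place of the mean.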

Additional observations from a re-analysis of the deposited data

How the results depend on the processing

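Over the 15 alternatives, 29 to 31 members had a negative difference, and the median difference of the members stayed between −0.25 and −0.15. Where all 6 animals were compared, the groups of 11 to 16 members did not overlap, with tricresyl phosphate lower. With 1 animal left out, or with the slide block, which leaves corn oil replicate 1 out of this count, it was 15 to 22 members. Fewer animals make non-overlap easier, and these counts are not set beside shares of all genes. Normexp with quantile normalization gave 2 genes past an adjusted limma p of 0.05, and so did an intensity trend with robust variance, in both cases Galnt3 and an unnamed transcript and no member. Leaving out 1 animal gave 0 to 1 such genes, 4 to 11 members lower at an unadjusted p under 0.05 (4 without corn oil replicate 2, and 7 without tricresyl phosphate replicate 2 or 3) and 0 to 1 higher (Cdca8, without corn oil replicate 2). The other alternatives gave 8 to 13 lower members. Of all genes, 2.95% to 5.2% were lower at that threshold when 1 animal was left out. Under the other alternatives this share was 2.95% to 4.19%. Of the 36 genes that the naming rule gave, 32 kept their sign throughout, and none passed the adjusted threshold under any alternative. The difference of 23 of them turned sign or moved by over 1.5 times under at least 1 alternative, among them 6 of the 16 with an unadjusted p under 0.05 (Birc5, Ccna2, Cdca2, Kif15, Mcm3 and Mki67). The sign turned for Cdkn1a under quantile normalization (0.012) and normexp (0.0212), with a range of −0.128 to 0.0207 when 1 animal was left out. It turned for Cdkn1b with the mean of its kept probes (−0.00046), with a range of −0.0561 to 0.145 when 1 animal was left out, for Mcm4 with the mean of its kept probes (0.0311), and for Pcna when 1 animal was left out (−0.149 to 0.0149). The cause was not tested. Deviations of same-numbered animals correlated at 0.086, −0.051 and −0.044, and those of animals with different numbers at −0.078 to 0.120. These values showed no pairing by replicate number, but cannot exclude one in the design. With the replicate block, 11 members were lower at an unadjusted p under 0.05, 8 of them shared with the fit without it. In that fit with the block, 0 genes passed the adjusted threshold. Aurkb and Kif2c were not well above background on all 6 arrays, and requiring that left 38 members and 11 lower.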
